A study of Mus musculus with 8 samples.

Results

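This account follows nascent transcription between 1 h and 3 h after release from a mitotic block, gene by gene, in mouse induced pluripotent stem cells. The comparison sets the column of the deposited table named late G1 against the column named early G1 for all 14861 genes in the table. It uses 4 of the 8 libraries of the study: 2 of cells released for 1 h and 2 of cells released for 3 h. Of the 14861 genes, 14719 had a mean signal of at least 0.5 over both columns and were listed above 0 in each, and these were compared. A further 42 genes fell below that minimum and 100 were listed at 0 in a column.

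The cells carry the FUCCI2 cell-cycle reporter and come from a clonal line, so they stand for 1 clone. All groups were grown on irradiated feeder cells in KO-DMEM with FBS, LIF and 2i, the pair of MEK and GSK3 inhibitors that holds mouse stem cells in a naive state. The released groups had been held with nocodazole, a microtubule poison, at 200 ng/ml for 6 h, collected by mitotic shake-off and returned to fresh medium for 1 h or 3 h. Mitotic cells taken without release (2 libraries) and untreated asynchronous cells (2 libraries) give reference levels here. The table holds 1 combined value per gene and group, so no difference below has a replicate check, and no SD, p-value or interval can be given. The column names were matched to the release times by meaning. The groups differ in cell-cycle position by design, and nothing in the table separates time since mitosis from time since nocodazole.

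During mitosis most transcription stops as chromosomes condense. As cells leave mitosis, RNA polymerase II returns to genes over a short interval, and housekeeping genes, cell-identity genes and growth genes regain transcription at different times. PRO-seq reads this directly: in isolated nuclei, engaged polymerases add a few labelled nucleotides to the RNA they are making, and the signal over a gene reflects polymerase at work there and not the amount of stored mRNA.

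Throughout, a gene is said to rise or fall when its signal at 3 h was at least 2-fold higher or lower than at 1 h. The fold is the ratio of (signal + 0.1), which understates the change of weakly transcribed genes. The column total was 361203 at 1 h and 326086 at 3 h (90.3% of the 1 h total), against 16863 in mitosis and 309144 in asynchronous cells. The low end of the columns differed as well: the 1st percentile of the signal was 0.369 at 1 h, 0.992 at 3 h and 0.195 in asynchronous cells. The depth behind the columns is unknown.

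At 3 h 2251 genes had risen (15.3% of the genes compared) and 1109 had fallen (7.53%), while 11359 (77.2%) stayed within 2-fold. Over all genes the median log2 ratio was -0.08, with quartiles of -0.56 and 0.58, and 7911 genes (53.7%) were lower at 3 h than at 1 h. Changes of at least 4-fold were seen for 526 genes upward and 113 downward. Rising genes made up 67.0% of the changed genes. That share was 77.6% after scaling both columns to equal medians, 79.4% after scaling to equal totals, 56.8% after quantile normalization and 50.9% after subtracting each column's 1st percentile. Among more strongly transcribed genes the balance turned: rising genes made up 41.4% of the changed genes with a minimum mean signal of 10 (497 risen, 704 fallen) and 43.4% among genes at or above the median asynchronous signal (437 risen, 569 fallen). The rising genes were weak at 1 h (median signal 1.85) and reached a median of 6.06 at 3 h, against 3.10 in asynchronous cells. The falling genes went from a median of 20.4 to 8.01, against 9.82 in asynchronous cells.

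**Figure D1:**
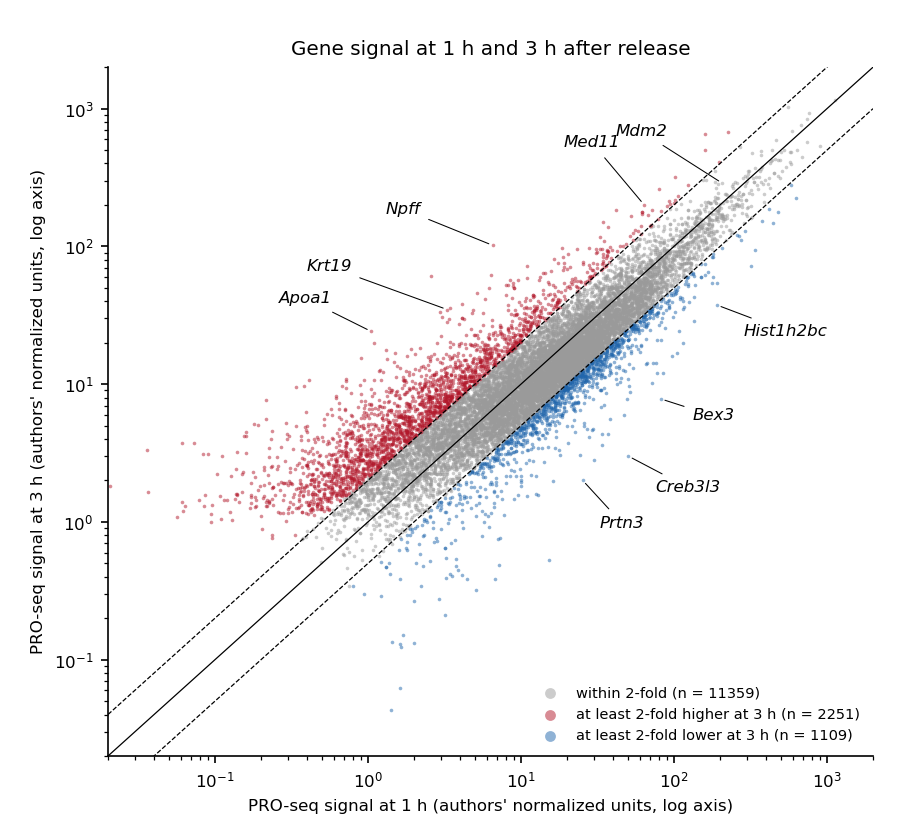
Signal of each of the 14719 compared genes at 1 h (x axis) and 3 h (y axis), in the authors' normalized units on log axes. The solid line marks equality and the dashed lines a 2-fold difference. Red points, 2251 genes at least 2-fold higher at 3 h, lie mostly at low signal, and blue points, 1109 genes at least 2-fold lower, spread along the upper range.

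The asynchronous level was set beside both G1 levels. Of the 2251 genes that rose, 1213 (53.9%) crossed from below to above their asynchronous signal, 670 were above it at both times and 368 were still below it at 3 h. By 3 h, 1150 of the rising genes (51.1%) stood at least 2-fold above their asynchronous signal. Of the 1109 genes that fell, 628 (56.6%) had been at least 2-fold above the asynchronous signal at 1 h, and 837 (75.5%) were within 2-fold of it at 3 h. Over all genes compared, the asynchronous signal lay between both G1 signals for 30.2%, and 17.4% were at least 2-fold above it at 3 h. At 1 h 18.2% of all genes were at least 2-fold above the asynchronous signal, and 77.7% were within 2-fold of it at 3 h. Rising and falling genes were chosen by these G1 signals, so part of each difference from all genes follows from the choice.

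Among genes of at least median signal, the largest rises belonged to genes of varied function. Apoa1, which encodes the main protein of high-density lipoprotein, was listed at 0 in mitosis, at 1.05 at 1 h, at 24.2 at 3 h and at 3.68 in asynchronous cells, a 21.2-fold rise. Its start site lies at position 46228580 of chromosome 9 (GRCm38, plus strand). Rprm, the gene of the p53-induced cell-cycle inhibitor Reprimo, had a signal of 0.297 in mitosis, 4.10 at 1 h, 37.9 at 3 h and 4.26 in asynchronous cells. It therefore sat at the asynchronous level at 1 h and was 9.05-fold higher 2 h later. Rgs14, a regulator of G protein signalling, rose from 5.17 to 46.2 (8.79-fold) against 1.84 in asynchronous cells. Ldb3, a muscle Z-disc protein, rose from 4.13 to 30.3 against 2.496, and the haem-binding protein gene Hebp2 from 2.99 to 22.5 against 2.11. For Apoa1, Rprm, Rgs14, Ldb3 and Hebp2 the 3 h value was the highest of all columns. Obsl1, a cytoskeletal adaptor, rose from 5.78 to 41.7, closer to its asynchronous 22.5, and Lkaaear1 from 3.38 to 29.9, against 21.5. Slc5a2, the kidney glucose transporter, had the largest ratio (22.7-fold, 2.58 to 60.8) and stayed below its asynchronous 93.7.

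The largest falls differed in where they ended beside the asynchronous level. Creb3l3, a liver-rich transcription factor gene, had the largest ratio, falling 16.3-fold from 50.4 to 3.00, above its asynchronous 1.42. Rfpl4 went from 33.9 to 3.63, also above its asynchronous 0.48, and Smim26 from 29.9 to 2.81, below its 4.70. Rras, a Ras-family GTPase, had a signal of 85.3 at 1 h, 12.1 at 3 h and 14.2 in asynchronous cells, a 7.01-fold fall. Kptn, a subunit of the KICSTOR complex that restrains mTORC1, fell from 77.5 to 12, against 13.9 in asynchronous cells. H2-Oa, a class II antigen presentation gene, fell from 24.4 to 3.09 (asynchronous 4.92). Tepsin, an adaptor-complex accessory protein, fell from 33.6 to 4.38 (asynchronous 8.60). Cd79a, a component of the B-cell receptor, fell from 38.5 to 5.63, against 3.17 in asynchronous cells. Of these, Rras and Kptn were at the asynchronous level by 3 h, while H2-Oa and Tepsin were below it and Cd79a above it. Atxn7l3b fell from 27.9 to 4.14, below its asynchronous 15.8. Ebna1bp2, a nucleolar protein needed for the large ribosomal subunit, likewise went from 46.8 to 6.02, under its asynchronous 28.5.

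**Figure D2:**
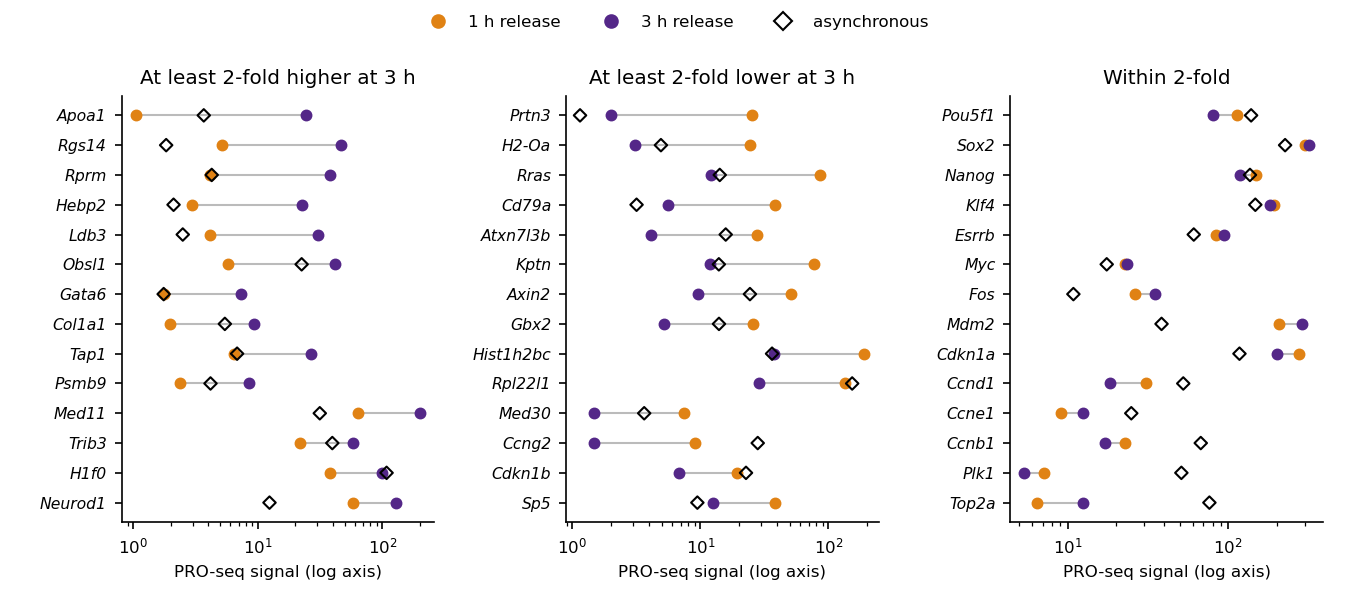
Signal of selected genes at 1 h (orange), 3 h (purple) and in asynchronous cells (open diamonds), on log axes in the authors' units, 1 combined value per group. Some genes that fell ended at the diamond, as Rras did at 12.1 against 14.2, while Ccnb1, Plk1 and Top2a stayed far below it at both times.

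Gene lists are described by how many members rose and fell and by a relative median, the median log2 ratio of the list minus that of all genes. Counts are to be read beside the shares of all genes compared, 15.3% risen and 7.53% fallen. A value of 0 means that the list moved as the median gene did. Rescaling the columns to equal medians or equal totals raises every gene by 0.12 or 0.15 on the log2 scale and leaves relative medians almost as they are. Of 61 lists with at least 5 members compared, 33 had a relative median of 0.25 or more in size. None of these 33 changed sign under the alternatives tried.

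The genes of the gene expression machinery were lower at 3 h as a class. Over 12 lists and 636 members, 9 rose (1.42%, against 15.3% of all genes) and 58 fell (9.12%, against 7.53% of all genes), and the relative median was -0.37. The class thus differed from all genes in its rises and its median, while its share of falls lay near the background. Its median asynchronous signal was 20.2. Of all genes with an asynchronous signal of 12.6 to 24.1, 5.57% rose and 8.08% fell, and their relative median was -0.19. Beside genes of that level the class was still lower in its rises and its median, but by less than beside all genes. In ribosome biogenesis, the nucleolar proteins that process ribosomal RNA, 11 of 73 members fell and none rose, 69 of 73 were lower at 3 h, and the relative median was -0.46. Utp15, of the small-subunit processome, went from 15.1 to 5.77, against 7.81 in asynchronous cells. The nucleolar RNA helicase Ddx21 went from 50.001 to 22.5, and Utp3 from 92.8 to 37.3. The most familiar nucleolar genes moved less: Npm1 was 1.27-fold lower, Ncl 1.24-fold and Nop56 1.63-fold. Rrp8 had the largest increase of the list at 1.45-fold. Counts of fallen members here stood at 11 of 73, above the 7.53% of all genes.

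RNA polymerase II and its general factors gave 13 fallen (19.4%) and no risen members of 67, with a relative median of -0.46. The falls were spread over initiation and elongation. Taf1, the largest TFIID subunit, went from 17.3 to 6.495, Cdk7 of TFIIH from 41.3 to 18.5, and Polr2i from 124 to 51.3. Cyclin T2 (Ccnt2), a partner of the elongation kinase Cdk9, went from 32.1 to 12.9, and 3 h values of these genes lay near the asynchronous values of 5.42, 21.2, 50.4 and 15.1 in the same order. The catalytic subunits did not follow: Polr2a had 52.6 at 1 h and 51.2 at 3 h, and Polr2b had 52.3 and 67.4. Cdk9 and its inhibitor Hexim1 differed by 1.14-fold and 1.05-fold. Mediator, the bridge between activators and polymerase, had 5 fallen (15.2%) and 1 risen of 33 members and a relative median of -0.52. Its kinase-module gene Cdk19 fell from 18.1 to 6.91 and Med30 from 7.46 to 1.47. Med11 went the other way, from 63.7 to 201 against 31.4 in asynchronous cells, a 3.15-fold rise. In the Integrator complex all 14 members were lower at 3 h in the deposited columns, Ints1 and Ints3 by 1.08-fold and 1.09-fold, less than the shift that scaling to equal medians gives, and 2 fell, Ints6 (35.5 to 13.4) and Ints13 (12.7 to 5.77).

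RNA splicing genes showed a small shift shared by nearly all members. Their relative median was -0.52 and 67 of 70 were lower at 3 h, yet 3 fell by 2-fold, a share below that of all genes. Aminoacyl-tRNA synthetase genes had the same form, with 22 of 23 lower, 1 fallen (Eprs, 36.5 to 16.7) and a relative median of -0.55. Translation factors had 7 fallen (10.1%) and 3 risen (4.35%) of 69 and a relative median of -0.42. Among them Eif1ax, a start-codon scanning factor on the X chromosome, fell from 11.6 to 3.40, and the tissue-restricted elongation factor Eef1a2 rose from 1.21 to 4.30. Nuclear pore and import genes had 3 fallen (5.88%) and 1 risen of 51 and a relative median of -0.41. The importin gene Ipo4 fell from 12.1 to 2.78. Proteasome genes had 7 fallen (14.6%) and 1 risen of 48 and a relative median of -0.48. The single risen proteasome gene was Psmb9, an immunoproteasome subunit, described below with antigen presentation.

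The ribosomal proteins themselves did not share in this. The 81 cytosolic ribosomal protein genes had a relative median of 0.00, none rose and 2 fell. Rpl22l1 went from 136 to 28.7, against 153 in asynchronous cells, and Rplp2 from 106 to 51.1, against 128. Rps21 had the largest increase, from 185 to 352 (1.91-fold). Ribosomal protein genes have processed copies elsewhere in the genome, and reads shared with those copies could affect these values. Mitochondrial ribosomal proteins had a relative median of -0.07 with 3 risen and 2 fallen of 74, and the RNA polymerase I and III machinery one of -0.20 with 2 fallen of 35. The latter were Maf1, the repressor of polymerase III (56.4 to 18.9), and the polymerase III initiation factor Bdp1 (19.2 to 9.20).

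**Figure D3:**
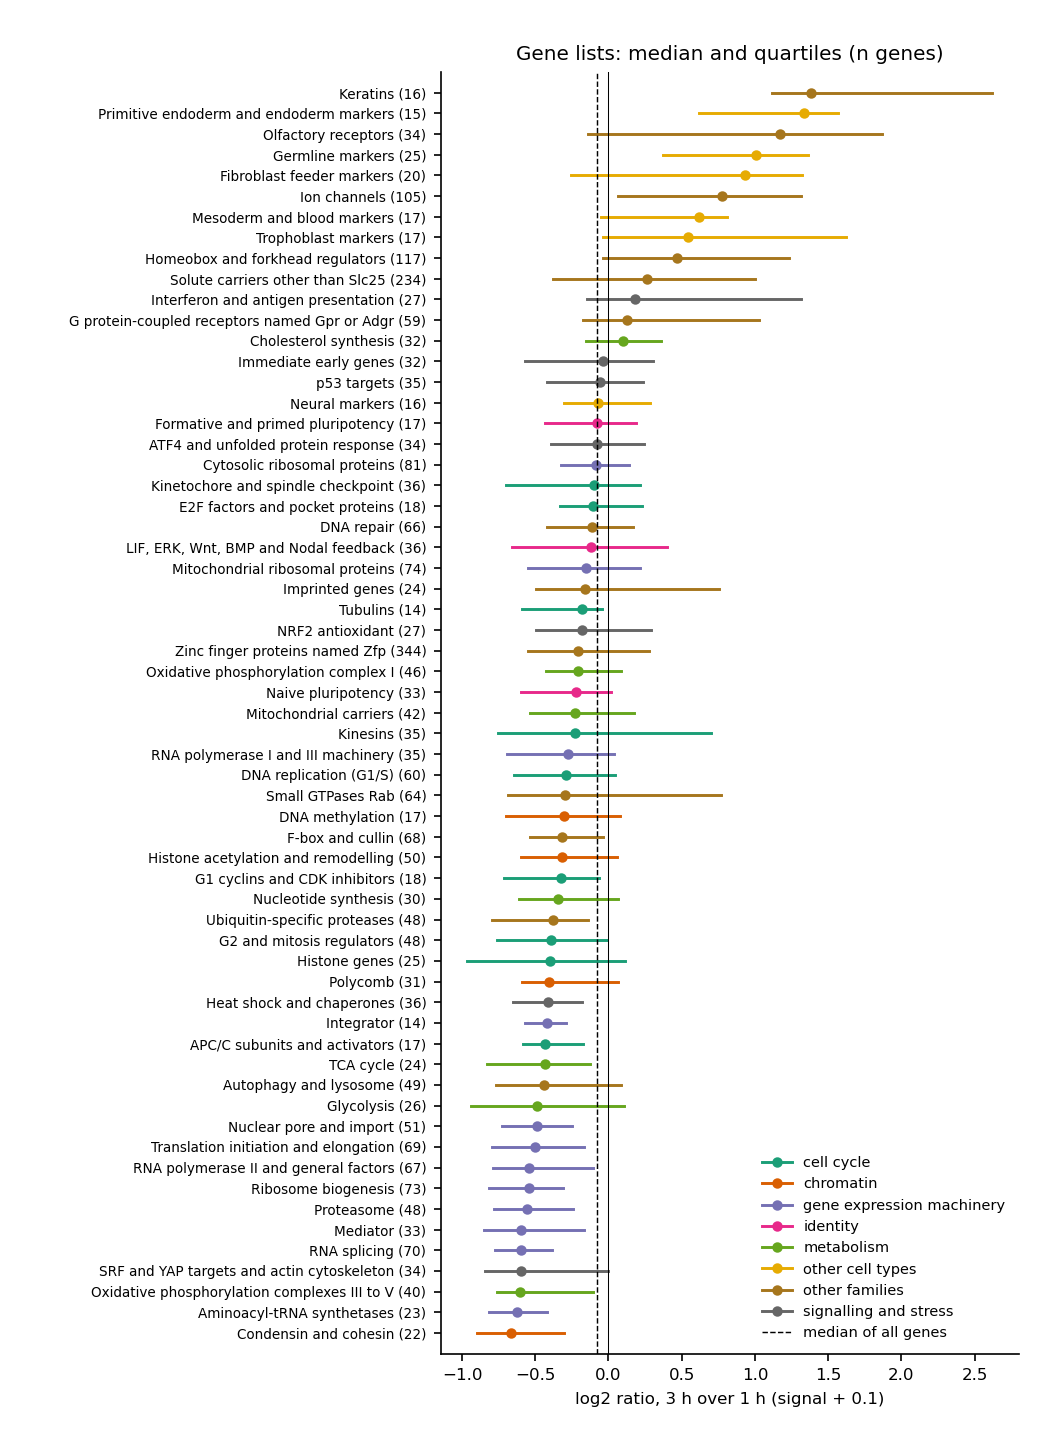
Median (point) and quartiles (bar) of the log2 ratio of 3 h over 1 h for 61 gene lists, coloured by theme, with the number of genes compared in brackets. The dashed line marks the median of all genes at -0.08. Keratin, endoderm, olfactory receptor, germline and feeder lists lie at the right, and machinery lists together with condensin and cohesin at the left.

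Structural genes of chromosomes were among the lowest lists. Condensin and cohesin genes, whose rings compact and hold chromosomes, had the lowest relative median of all lists at -0.59. Of 22 members 18 were lower at 3 h, 3 fell (13.6%) and none rose. The fallen members were Esco2 (12.3 to 5.54), which acetylates cohesin in S phase, the cohesin subunit Stag2 (6.73 to 3.03) and the cohesin loader Nipbl (14.6 to 7.23). Rad21, at 41.1 and 21.8, Smc4, at 29.5 and 15.6, and Smc2, at 16.6 and 9.27, were lower by just under 2-fold. The kleisin subunits of condensin differed: Ncaph was 1.16-fold and Ncaph2 1.20-fold higher at 3 h. Polycomb genes had a relative median of -0.33, none fell, and Pcgf1 rose from 4.85 to 14.3. Histone acetylation and remodelling genes had 6 fallen and 1 risen of 50, including the remodellers Chd8 (39.1 to 16.6) and Ep400 (24.6 to 10.2). In the DNA methylation list none of 17 members rose or fell, and Tet1, a methylcytosine oxidase, had 121 at 1 h and 149 at 3 h.

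Histone genes had 6 fallen (24%) and 1 risen of 25 and a relative median of -0.32. Hist1h2bc went from 191 to 37.5, reaching its asynchronous 36.3, and Hist3h2a from 191 to 54.0, against 79.6. The linker histone H1f0, which is linked to quiescent and differentiated cells, rose from 38 to 99.2, against 108 in asynchronous cells. Histone genes are near-identical copies of each other, and the division of reads among them was not given in the sources used here, so values of single copies are uncertain.

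Cell-cycle genes as a class were slightly lower than the median gene, and most mitotic genes stayed below their asynchronous signal. Over 9 lists and 264 members 11 rose (4.17%) and 28 fell (10.6%), with a relative median of -0.19. Their median asynchronous signal was 17.2. All genes in the 4th of 5 equal classes of that signal (12.6 to 24.1) also had a relative median of -0.19. Set against the median of its own signal class, the median was -0.15 for G2 and mitosis regulators, -0.07 for DNA replication and 0.11 for kinetochore genes. Of 48 regulators of G2 and mitosis 6 fell, 1 rose and 37 were lower at 3 h, with a relative median of -0.31. The median member had a signal of 10.2 at 1 h, 9.80 at 3 h and 19.3 in asynchronous cells, and 45 of 48 were at or below their asynchronous signal at 3 h. Ccnb1 (cyclin B1) had 22.7, 17.2 and 67.4 in those groups, and the mitotic kinase gene Plk1 had 7.17, 5.38 and 51.1. Kif23, needed for cytokinesis, fell from 12.6 to 4.50, and the mitotic kinase gene Pbk from 31.3 to 9.50. Top2a and Cdc25b went upward, Top2a from 6.48 to 12.5 (1.91-fold) with 76.3 in asynchronous cells, and Cdc25b from 1.53 to 3.62.

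Genes that govern entry into S phase mostly changed by less than 2-fold. Of the G1 cyclins and CDK inhibitors 15 of 18 were lower at 3 h, with a relative median of -0.25. DNA replication genes had 43 of 60 lower (relative median -0.21), and E2F and pocket protein genes 10 of 18 (-0.03). None of 18 G1 cyclins and CDK inhibitors rose and 3 fell: cyclin G2 (Ccng2), from 9.01 to 1.46, the p27 inhibitor gene Cdkn1b, from 19.15 to 6.78, and Cdc25a, from 57.1 to 25.3. Ccng2 stood far under its asynchronous 28.05 at both times. Ccnd1 (cyclin D1) had 30.8 at 1 h and 18.4 at 3 h against 52.5 in asynchronous cells, and Ccne1 (cyclin E1) had 9.09 and 12.4 against 24.9. None of 60 DNA replication genes rose and 3 fell, among them Dbf4, the activator of the origin kinase (29.9 to 12.6), and the origin subunit gene Orc3 (32.4 to 15.2). In the E2F and pocket protein list the repressor E2f8 rose from 2.00 to 6.95. Tubb4b, a gene of the tubulins that nocodazole binds, fell from 50.8 to 21.4 with 91.2 in asynchronous cells, and Tuba3a rose from 5.40 to 17.5. Among kinesins the spindle motor gene Kif15 rose from 12.6 to 34.7, above its asynchronous 12.7, and Kif4 fell from 4.73 to 1.94.

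Energy metabolism lists were mostly lower. Glycolysis genes had 5 fallen (19.2%) and 1 risen of 26 and a relative median of -0.41. Tpi1 went from 68.1 to 27.9 and the glucose transporter gene Slc2a3 from 93.4 to 36.1, against 69.2 and 121 in asynchronous cells. The muscle-type phosphofructokinase gene Pfkm rose from 13.7 to 30.7. TCA cycle genes had 3 fallen (12.5%) and 1 risen of 24, Idh3b going from 77.4 to 21.0 and Suclg2 from 2.61 to 8.003. Complexes III to V of the respiratory chain had 5 fallen of 40 (12.5%) and a relative median of -0.52. Atp5e went from 59.6 to 17.2 and Cox6a1 from 42.3 to 19.4. Complex I genes had a relative median closer to that of all genes, -0.13, with 3 fallen of 46 (6.52%). Cholesterol synthesis genes lay on the other side at 0.18, and none of 32 fell. The master regulator gene Srebf2 had 17.1 and 28.8, a 1.68-fold difference.

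Genes induced by p53 were held at a high level. They had a relative median of 0.02, 3 of 35 rose and none fell, and 32 of 35 were above their asynchronous signal at 3 h. Mdm2, the ubiquitin ligase that limits p53, had 9.81 in mitosis, 207 at 1 h, 288 at 3 h and 38.4 in asynchronous cells, and Cdkn1a (p21) had 23.1, 277, 202 and 117. Both were above the asynchronous level at both times and within 2-fold of each other between 1 h and 3 h. The risen members were the death receptor gene Fas (3.92 to 11.7, asynchronous 0.695), Perp (19.07 to 43.3, asynchronous 6.31) and Tap1. Sesn2, from 131 to 81.8, and Tigar, from 52.6 to 29.8, were lower by less than 2-fold. Immediate early genes had a relative median of 0.04, none of 32 rose and Ier3 fell from 19.5 to 7.34. Fos had 26.4 and 35.0, Fosb 12.9 and 6.41, and Myc 22.7 and 23.4.

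Other stress lists differed in their relative medians. The ATF4 and unfolded protein response list stood at 0.00, and 3 of 34 members rose (8.82%, against 15.3% of all genes) and none fell. These were the pseudokinase gene Trib3 (21.6 to 58.2), the serine synthesis gene Phgdh (1.54 to 3.97) and Chac1 (3.17 to 6.58), while Asns went from 94.5 to 51.9. Heat shock and chaperone genes had a relative median of -0.33, with none risen and 3 fallen of 36 (8.33%, against 7.53% of all genes). The chaperonin gene Cct3 went from 45.6 to 18.6 and the co-chaperone gene Fkbp4 from 65.6 to 29.8. The NRF2 list had 2 risen (7.41%) and 1 fallen (3.70%) of 27 and a relative median of -0.10. Its antioxidant genes Nqo1 (9.05 to 21.9) and Srxn1 (11.5 to 25.5) rose and the peroxiredoxin gene Prdx5 fell (26.4 to 10.3). SRF and YAP targets and actin genes had 4 fallen and 1 risen of 34 and a relative median of -0.52, including filamin A (Flna, 30.8 to 13.99) and calponin (Cnn1, 7.19 to 2.82), while Tpm2 rose from 1.96 to 7.996.

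Several antigen presentation genes rose. Of 27 interferon and antigen presentation genes 7 rose (25.9%, against 15.3% of all genes) and 2 fell, and the relative median was 0.26. Outside the lowest quintile of asynchronous signal, the weakest of 5 equal classes of genes, 3 of 21 rose. Tap1 and Tap2, which form the peptide transporter of the class I pathway, rose from 6.48 to 26.6 and from 0.874 to 4.22. Psmb9, the immunoproteasome subunit transcribed away from Tap1, rose from 2.38 to 8.53, and Nlrc5, the transactivator of class I genes, from 1.05 to 6.23. Asynchronous values of these genes were 6.82, 2.63, 4.17 and 0.900, so all 4 were above that level at 3 h, and only Nlrc5 was above it at 1 h. The start sites of Psmb9 and Tap1 lie 36 bp apart on opposite strands of chromosome 17. The class I chains moved less: B2m had 16.1 and 17.8, H2-K1 2.57 and 2.41, and H2-D1 2.49 and 4.11. Ifitm3 rose from 20.8 to 70.7. Psmb10, another immunoproteasome subunit gene, fell from 25.1 to 11.7, and Bst2 from 3.78 to 1.32. Of the 7 risen genes, Mx1 and Oasl1 were below 0.2 at 1 h.

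Most genes of pluripotency stayed within 2-fold. Of 33 naive pluripotency genes 4 fell and 1 rose, with a relative median of -0.14 and a summed signal of 3039 at 1 h, 2734 at 3 h and 2778 in asynchronous cells, so the labelled stem cell type was borne out by its markers. The core factors had 113 and 80.0 (Pou5f1), 299 and 317 (Sox2), and 148 and 119 (Nanog) at 1 h and 3 h. Klf4 had 193 and 183 and Esrrb 84.2 and 93.5. The fallen genes included Gbx2, a homeobox target of LIF signalling, from 26.0 to 5.19, and Tcl1, from 6.75 to 2.85. Prdm14, a repressor that protects the naive state, rose from 9.29 to 32.0, above its asynchronous 24.4. Formative and primed genes had a relative median of 0.00 with 1 risen and none fallen of 17.

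Feedback genes of the signalling pathways moved in both directions. Of 36 compared, 5 fell and 3 rose. The Wnt feedback gene Axin2 went from 51.2 to 9.66, against 24.4 in asynchronous cells, and the Wnt target gene Sp5 from 38.2 to 12.6, against 9.47. Rnf43, which removes Wnt receptors, rose from 4.21 to 10.4, against 3.49, and Spry4, an inhibitor of receptor tyrosine kinase signalling, from 6.72 to 15.0, against 7.48. The Wnt genes of the list therefore did not move together. Bmp4 was listed at 0 at 1 h and at 5.13 at 3 h, and was left out of the counts.

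Markers of other cell types rose in 41 of 108 cases (37.96%, against 15.3% of all genes), mostly from low levels. Feeder cells share the dish, both released groups were collected by mitotic shake-off, and in bulk samples more cells of a type cannot be told apart from more signal per cell. Of 20 fibroblast feeder markers 9 rose and none fell (relative median 1.01), including Col1a1, the main chain of type I collagen, from 1.97 to 9.37 against 5.44 in asynchronous cells, and Snai2 from 1.02 to 5.64. The more strongly transcribed members went the other way, Fn1 from 106 to 61.3 and Tagln from 47.2 to 30.2. The summed signal of the list was therefore level, 268 at 1 h and 259 at 3 h, against 180 in asynchronous cells and 10.9 in mitosis, and no member was listed at 0 in a G1 column. The relative median was 0.36 after quantile normalization and 0.05 among genes at or above the median asynchronous signal. The part of feeder cells in the rises was not tested. Endoderm markers had 9 of 15 risen and none fallen (relative median 1.42), with a summed signal of 75.1 and 107, and the relative median was 0.71 after quantile normalization. Gata6, a founding factor of primitive endoderm, rose from 1.77 to 7.29, and the basement membrane collagen gene Col4a2 from 1.43 to 4.51, while Sparc and Dab2 differed by 1.15-fold and 1.09-fold.

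Germline markers had 13 of 25 risen and none fallen (relative median 1.09, summed signal 165 and 236), with the sperm protein gene Tex101 going from 0.217 to 5.55 and the synaptonemal gene Syce1 from 1.22 to 3.95. Trophoblast markers had 6 risen and 1 fallen of 17 (summed signal 153 and 241). The risen included Dlx4 (2.97 to 33.2) and Krt19 (3.29 to 34.8), and the fallen gene was Cdx2 (7.99 to 1.91), a founding trophoblast factor. Mesoderm and blood markers had 3 risen and 2 fallen of 17 (summed signal 211 and 218), with Gata2 rising from 0.954 to 7.60 and Foxc2 falling from 6.67 to 2.78. Neural markers stood at the median of all genes (relative median 0.01), with 2 risen and 3 fallen of 16. Neurod1, a neurogenic factor, rose from 58.5 to 129, both far above its asynchronous 12.4, and Sox11 fell from 11.2 to 3.32. No marker of these lists was listed at 0 in a G1 column, and the part of other cell types in these rises was not tested.

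Gene families of differentiated tissue followed the same direction. Of 16 keratin genes compared, of 17 in the table, 13 rose and none fell. Krt7 went from 1.33 to 8.24 and Krt15 from 0.396 to 6.29, while Krt10 had 48.7 and 44.2 and Krt18 7.62 and 7.42. Ion channels had 40 of 105 risen and 4 fallen (relative median 0.85, and 0.26 after quantile normalization), with the potassium channel gene Kcnn4 rising from 3.58 to 19.6 and the chloride transporter gene Clcn4 falling from 101 to 33.3. Homeobox and forkhead regulators had 33 of 117 risen and 6 fallen (relative median 0.54). Foxb2 went from 0.902 to 15.4, against 0.873 in asynchronous cells, and Hoxb8 fell from 6.36 to 1.16. Solute carriers other than mitochondrial ones had 59 of 234 risen and 12 fallen, with the glutamine transporter gene Slc38a3 rising from 1.34 to 15.1 and the iodide transporter gene Slc5a5 falling from 23.5 to 7.43. Olfactory receptors, many of them near-identical copies that could share reads, had 18 of 34 risen and 1 fallen, with a relative median of 1.25 that was 0.29 after quantile normalization and 0.18 with each column less its 1st percentile. The fallen one, Olfr90, had 104 at 1 h, 16.8 at 3 h and 30.8 in asynchronous cells.

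These lists hold many weakly transcribed genes, and the level of a gene went with its ratio. This relation depended on the processing: relative to the median gene, the lowest quintile of asynchronous signal stood at 0.73 here and at 0.081 after quantile normalization. With a minimum mean signal of 10 the value was -0.022, but the quintile was then redrawn among the genes left and held stronger genes. Over 5 equal classes of the asynchronous signal (quintiles), from the lowest to the highest, the median log2 ratio was 0.65, 0.04, -0.18, -0.27 and -0.24. The share of genes that rose was 38.5%, 17.4%, 10.2%, 5.57% and 4.82%, whereas the share that fell stayed between 6.76% and 8.08%. Of the lists above, 11 of 16 keratins, 26 of 34 olfactory receptors, 14 of 25 germline markers, 9 of 15 endoderm markers and 10 of 20 feeder markers were in the lowest quintile. Set gene by gene against the median of its own quintile, the median was 1.08 for keratins, 0.72 for endoderm markers, 0.66 for trophoblast markers, 0.58 for germline markers, 0.52 for olfactory receptors, 0.44 for ion channels, 0.37 for feeder markers and 0.33 for homeobox and forkhead genes. On the same measure, condensin and cohesin had -0.59, aminoacyl-tRNA synthetases -0.39, Mediator -0.39, RNA splicing -0.35 and ribosome biogenesis -0.33. On this measure the lists just given kept their direction, and most moved closer to 0. Several lists near the median gene changed sign, such as naive pluripotency (-0.14 to 0.02) and neural markers (0.01 to -0.18). Outside the lowest quintile, where 1118 of 11775 genes rose and the median log2 ratio was -0.18, few members of some lists were left. There 3 of 5 keratins, 5 of 10 feeder markers, 4 of 11 germline markers, 1 of 6 endoderm markers and 2 of 8 olfactory receptors rose. The median of those 8 olfactory receptors was -0.22, so their higher level at 3 h was not seen outside the lowest quintile.

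**Figure D4:**
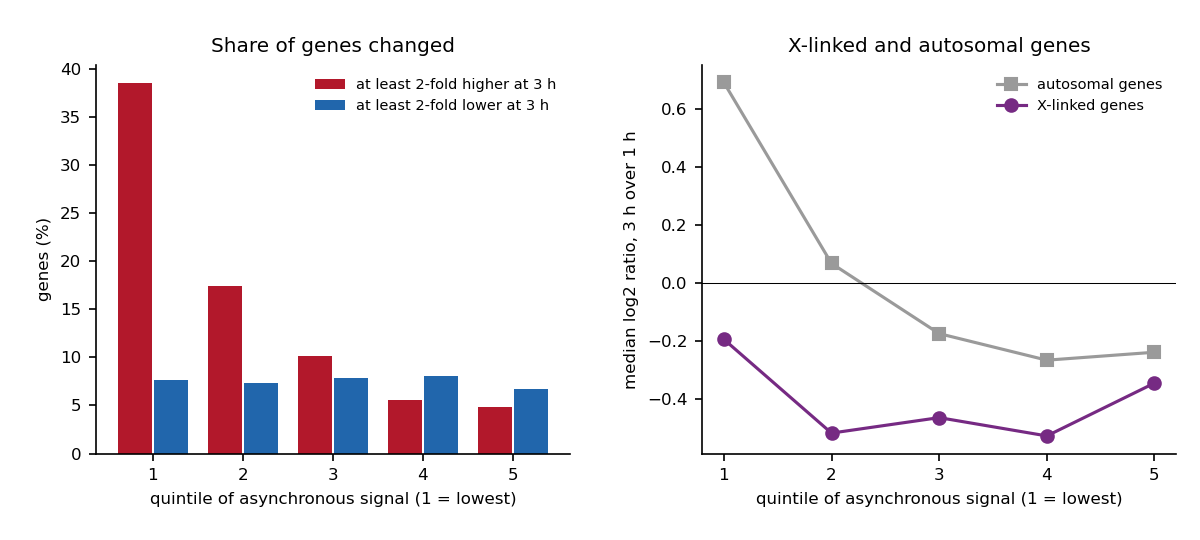
Left, percentage of genes at least 2-fold higher (red) or lower (blue) at 3 h in each quintile of the asynchronous signal. Right, median log2 ratio of 3 h over 1 h for autosomal genes (squares) and X-linked genes (circles) in the same quintiles, where X-linked medians are lower in all 5. The share of rising genes drops from 38.5% to 4.82% from the weakest to the strongest quintile, while the share of falling genes stays between 6.76% and 8.08%.

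The span of a gene from its start site to the end of its annotation went with the ratio for the longest genes. The 423 genes over 200 kb had a median log2 ratio of 0.61, with 134 risen (31.7%) and 11 fallen, against medians between -0.17 and 0.06 in all shorter classes. These genes are weak, with a median asynchronous signal of 2.66. Within the lowest quintile of asynchronous signal the 239 long genes had a median of 0.86 against 0.62 for the rest, and within the middle quintile the 42 long genes had 0.38 against -0.20. Genes of up to 2 kb had the largest share of falls, 68 of 430 (15.8%), but 77 of them (17.9%) rose. Their median log2 ratio was -0.09, near the -0.08 of all genes.

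Genes of the X chromosome fell more often than autosomal genes. The 414 X-linked genes compared had a median log2 ratio of -0.40 against -0.07 for 14305 autosomal genes, and 63 of them (15.2%) fell against 7.31% of autosomal genes. The share that rose was 6.52% against 15.5%. No autosome was as low, the lowest being chromosome 3 with a median of -0.21. The difference held within each quintile of asynchronous signal, where X-linked medians were -0.19, -0.52, -0.46, -0.53 and -0.34 and autosomal ones 0.69, 0.07, -0.17, -0.27 and -0.24. Along the chromosome, the median was below that of autosomes in 8 of 9 windows of 20 Mb, the exception being the window from 120 to 140 Mb with 0.02. The falls covered unrelated functions: the survival kinase gene Pim2 went from 48.2 to 12.5, the acetyltransferase gene Naa10 from 60.6 to 19.15 and the histone demethylase gene Kdm6a from 19.05 to 6.40. These X-linked examples were chosen after their values were seen. Usp27x, a deubiquitinase gene, rose from 5.51 to 14.9.

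Within the X chromosome, a family of neighbouring genes of shared ancestry included several of the largest falls. Bex, Tceal, Armcx and Gprasp genes are small, brain-rich genes that lie in a cluster, and were looked at after their values were seen. Of the 15 in the table, 14 could be compared: 6 fell, none rose, and the summed signal went from 399 to 169, with 279 in asynchronous cells. Bex3, an adaptor of the p75 neurotrophin receptor, fell from 82.3 to 7.81, with 3.37 in asynchronous cells. Tceal8 went from 87.1 to 25.4 and Tceal9 from 52.0 to 16.9, with 79.0 and 34.7 in asynchronous cells. Bex1 went from 102 to 49.1 and Armcx1 from 16.1 to 7.81. Bex4, at 23.5 and 29.7, Tceal1, at 2.38 and 3.36, and Gprasp2, at 4.67 and 4.73, did not fall. Bex2 had 5.19 at 1 h and was listed at 0 at 3 h. The 400 X-linked genes outside the family had a median of -0.39, so the family did not set the value of the chromosome.

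Promoters of this cluster are shown because its genes lie side by side, are related in sequence and yet differ in their change. They come from RefSeq (GRCm38.p6), run from 250 bases before to 50 after the RefSeq start, and are written 5′ to 3′ on the gene's strand, with CACGTG, the core of the E-box that bHLH factors bind, in capitals. Bex1 lies at chrX:136215464-136215763 and Tceal8 at chrX:136172202-136172501, both on the minus strand. Bex4 lies at chrX:136138746-136139045 and Tceal1 at chrX:136707732-136708031, both on the plus strand. The promoters of Tceal8 and Bex1, which fell, come before those of Bex4 and Tceal1, which did not.
Tceal8: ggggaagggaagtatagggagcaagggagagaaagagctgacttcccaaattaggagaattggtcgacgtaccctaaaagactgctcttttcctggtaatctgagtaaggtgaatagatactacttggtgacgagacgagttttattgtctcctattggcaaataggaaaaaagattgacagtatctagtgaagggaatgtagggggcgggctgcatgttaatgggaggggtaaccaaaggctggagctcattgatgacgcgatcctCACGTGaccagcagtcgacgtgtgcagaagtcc
Bex1: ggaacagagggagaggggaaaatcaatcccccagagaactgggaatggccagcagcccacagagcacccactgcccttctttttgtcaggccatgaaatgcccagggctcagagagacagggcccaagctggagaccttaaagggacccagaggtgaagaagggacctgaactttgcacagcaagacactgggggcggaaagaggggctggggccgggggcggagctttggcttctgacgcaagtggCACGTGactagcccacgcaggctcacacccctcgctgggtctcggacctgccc
Bex4: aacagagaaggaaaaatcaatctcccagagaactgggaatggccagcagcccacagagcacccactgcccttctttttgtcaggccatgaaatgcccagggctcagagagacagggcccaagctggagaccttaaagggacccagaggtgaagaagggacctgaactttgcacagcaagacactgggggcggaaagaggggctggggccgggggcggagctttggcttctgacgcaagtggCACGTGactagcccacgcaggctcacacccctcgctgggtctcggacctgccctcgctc
Tceal1: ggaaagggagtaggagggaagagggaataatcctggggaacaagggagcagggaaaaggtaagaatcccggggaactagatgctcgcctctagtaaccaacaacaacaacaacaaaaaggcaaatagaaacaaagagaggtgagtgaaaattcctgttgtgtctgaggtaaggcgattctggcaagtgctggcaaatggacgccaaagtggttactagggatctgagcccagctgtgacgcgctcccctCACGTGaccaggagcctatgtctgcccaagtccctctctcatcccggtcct
Each of these promoters holds 1 CACGTG, which reads the same on both strands. The hexamer is in 7.15% of all 32851 promoters of the RefSeq table and in 6 of the 10 family members that were compared and matched to a promoter within 100 bp. Of those 6, Tceal8, Bex1 and Armcx1 fell and Armcx4, Bex4 and Tceal1 did not. Of the 4 matched members without the hexamer, 1 fell (Tceal9). A link between the hexamer and the change was not tested, as the genes are few and were picked after their values were seen. The promoters of Bex1 and Bex4 share a run of 271 bases letter for letter, yet Bex1 was 2.08-fold lower at 3 h and Bex4 1.26-fold higher. The identity may extend into the transcripts, and the treatment of reads that match both was not given in the sources used here. Gprasp1 and Armcx5 have the same start site in the table, and Gprasp1 was 1.897-fold lower while Armcx5 was 1.20-fold higher.

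Ebna1bp2, the ribosome biogenesis gene with the largest fall, is shown for comparison as an autosomal promoter (chr4:118620549-118620848, plus strand, same source), with CCGGAA, the core bound by ETS factors, in capitals.
Ebna1bp2: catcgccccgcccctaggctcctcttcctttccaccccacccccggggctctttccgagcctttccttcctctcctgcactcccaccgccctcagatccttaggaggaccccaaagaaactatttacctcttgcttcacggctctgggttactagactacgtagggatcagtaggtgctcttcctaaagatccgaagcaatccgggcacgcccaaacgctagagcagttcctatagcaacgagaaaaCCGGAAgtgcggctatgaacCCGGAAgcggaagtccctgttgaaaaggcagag
CCGGAA on either strand is in 14.9% of all promoters in the RefSeq table. A match is a description of the letters and says nothing of binding in these cells.

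The ratios of neighbouring genes were correlated, with values that differed by distance and orientation. Over 14699 pairs of adjacent genes, both rose in 601, both fell in 144, and 1 rose while the other fell in 234. Pearson's r of the log2 ratios is given as a description across gene pairs, which share both columns and are not replicates. For tandem pairs, transcribed the same way, r was 0.72 for start sites within 1 kb (158 pairs), 0.28 at 5 to 20 kb (1389 pairs), 0.19 at 20 to 100 kb (3238 pairs) and 0.04 at 100 to 1000 kb (1830 pairs). Convergent pairs, which run toward each other, had 0.48 at 5 to 20 kb (539 pairs) and 0.39 at 20 to 100 kb (1775 pairs). Divergent pairs, whose promoters face away from each other, had 0.29 within 1 kb (787 pairs), 0.16 at 5 to 20 kb (801 pairs) and 0.08 at 20 to 100 kb (1170 pairs). Between 5 and 100 kb convergent pairs thus had the higher r of these 2 orientations. Orientation was set by the order and strand of the start sites. Close pairs whose starts overlap and that then run apart, as Tap1 and Psmb9 do, therefore count as convergent, and the shortest distances are not compared. Pairs whose annotated spans do not overlap gave 0.47 and 0.13 for convergent and divergent pairs at 5 to 20 kb. Tandem pairs of that kind gave 0.25 at 5 to 20 kb (1209 pairs). Within 1 kb too few tandem pairs had spans known not to overlap for a value, so the 0.72 there may reflect shared reads. Use of strand in assigning reads was not given in the sources used here, and the part of shared or run-on signal was not tested.

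**Figure D5:**
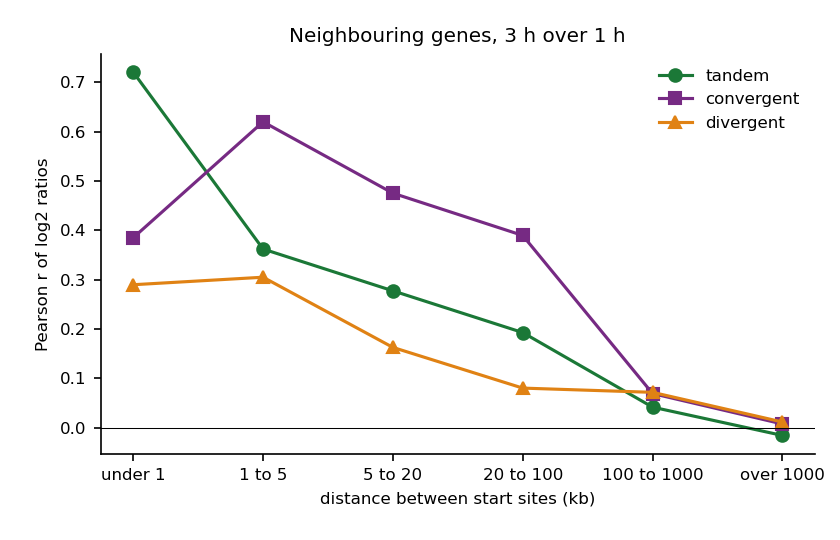
Pearson's r of the log2 ratios of adjacent genes (y axis) by distance between start sites (x axis, kb) for tandem, convergent and divergent pairs. Values fall toward 0 beyond 100 kb, and between 5 and 100 kb convergent pairs (0.48 and 0.39) lie above divergent ones (0.16 and 0.08).

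Single pairs are given as examples. Pairs named for their joint change agree by the way they were picked, so they say nothing about the correlation. The largest joint rises were those of Slc5a12 and Muc15, of Krt15 and Krt19 and of Lypd2 and D730001G18Rik. Slc5a12 and Muc15 start 124313 bp apart, in the range of 100 to 1000 kb where tandem pairs had an r of 0.04. Their signals at 1 h, 0.0205 and 0.159, lay below the 1st percentile of that column (0.369). Krt15 and Krt19, type I keratin genes with start sites 10192 bp apart on chromosome 11, went from 0.396 to 6.29 and from 3.29 to 34.8. The largest joint falls were those of Dlg4 and Asgr1, of Plppr3 and Prtn3 and of Fbxl8 and Hsf4. Plppr3 and Prtn3 start 252 bp apart on opposite strands of chromosome 10 and went from 96.8 to 16.1 and from 25.3 to 2.01, against 5.28 and 1.15 in asynchronous cells. Dlg4, a postsynaptic scaffold gene, went from 29.5 to 4.75, against 2.11. Further divergent pairs were noticed after their values were seen. Tepsin and the complex I assembly gene Ndufaf8 start 399 bp apart, and Ndufaf8 went from 113 to 42.3. The mitochondrial carriers Slc25a29 and Slc25a47 start 163 bp apart and went from 34.0 to 11.7 and from 41.99 to 10.8. A shared promoter region was not always accompanied by the same direction: the F-box genes Fbxo2 and Fbxo44 start 770 bp apart, and Fbxo2 rose from 5.43 to 24.2 while Fbxo44 fell from 9.27 to 3.54.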

How the data were processed

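PRO-seq signal per gene was taken from the table the authors deposited, which holds 1 normalized signal column for each of 4 groups, per the file headers. The values are not whole numbers, and no counts or depths were used. Per the submitters' processing notes, the tools were Bowtie2, SAMtools, cutadapt and Picard, and the genome was mm10 (GRCm38). The gene windows, the assignment of reads, strand use, scaling and the way 2 libraries became 1 column were not given in the sources used here. A class label that the authors deposited for each gene, of another kind of unit, was not used.

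For each gene, log2 of (signal at 3 h + 0.1) over (signal at 1 h + 0.1) was computed with Python 3.11.15 and pandas 2.3.3. Genes with a mean signal under 0.5, or listed at 0 in either column, were left out, and a change was called at 2-fold. With 1 combined column per group there is no test. Genes were matched to RefSeq by symbol (14401) or synonym (207), and 253 had no match. A span was found for 14378 genes, and 8622 genes (58.0%) had a promoter entry within 100 bp of the table's start, so promoter properties were not compared over all genes. The step was tested on simulated data.

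The members and the gene lists were chosen with earlier results of these data known. Named genes were the 14 highest and 14 lowest ratios among genes of at least median signal without a predicted name, 2 rises and 2 falls per list among members with a mean signal of at least 2.5, the 6 strongest genes, 14 genes always considered, and 3 neighbouring pairs each way. Not every gene the rule yields is printed, and further list members are given as examples chosen after their values were seen. Other pseudocounts, filters, scalings and folds were tried.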

Additional observations from a re-analysis of the deposited data

How the results depend on the processing

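No paired analysis was possible because the table holds 1 combined column per group, and for the same reason leaving out a replicate was not run. Across 15 planned settings and 3 chosen after seeing the data, no called ratio among 292 named genes changed sign, and 61 of 4363 gene values moved by over 1.5 times. Of 968 list values 9 did, in the feeder, ion channel, olfactory receptor and endoderm lists. The count of risen genes (2251) became 1495 with a minimum mean signal of 2.5, 497 with a minimum of 10 and 437 among genes at or above the median asynchronous signal. It was 3671 at 1.5-fold and 526 at 4-fold. The count of fallen genes (1109) became 704 with a minimum of 10, 699 with equal totals, 1832 with each column less its 1st percentile and 569 among genes at or above the median asynchronous signal. It was 3458 at 1.5-fold and 113 at 4-fold. The median log2 ratio of -0.08 became -0.28 with a minimum of 10, -0.22 with each column less its 1st percentile and -0.25 among genes at or above the median asynchronous signal, and it changed sign with equal medians (0.045) and equal totals (0.066). The lowest quintile of asynchronous signal stood 0.73 above the median gene, and this became 0.081 with quantile normalization. It was -0.022 with a minimum of 10 and 0.0057 among genes at or above the median asynchronous signal. In these last settings the quintile was redrawn among the genes left and holds stronger genes. The X-linked median stayed below the median gene in every setting run, from -0.21 to -0.50, and that of genes over 200 kb above it, from 0.26 to 0.72. The relative median of feeder markers ranged from 0.05 to 1.15 and that of olfactory receptors from 0.18 to 1.52. The cause of these moves was not tested. The unknown depth limits what can be said of genes with low signal.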

Other observations

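Further gene families, grouped by symbol after their values were seen, stood apart from the median log2 ratio of -0.08. Of all genes 15.3% rose and 7.53% fell, and in the lowest quintile of asynchronous signal 38.5% rose. Of 15 Wnt ligand genes 7 rose and none fell, with a median of 0.99 and a median signal of 3.27 at 1 h, 10.9 at 3 h and 2.72 in asynchronous cells. Of 14 Adamts and Adamtsl genes, secreted proteases of the extracellular matrix and their relatives, 8 rose and 1 fell (median 1.38), and of 12 matrix metalloproteinase genes 5 rose and none fell (median 0.97). Collagen chain genes had 11 of 25 risen and 4 fallen (median 0.92), with 15 of the 25 in the lowest quintile of asynchronous signal. Regulators of G protein signalling (Rgs) had 6 of 11 risen and none fallen (median 1.13), and cytochrome P450 genes 11 of 28 risen and none fallen (median 0.72). In the opposite direction, 12 of 16 histone demethylase genes (Kdm) were lower at 3 h, 3 fell and none rose, with a median of -0.79 and a median signal of 21.3 at 1 h, 12.3 at 3 h and 11.3 in asynchronous cells. The lowest quintile held 8 of the Wnt, 7 of the Adamts, 2 of the metalloproteinase, 4 of the Rgs and 10 of the P450 genes, and no Kdm gene. Set against the median of its own quintile, the median was 0.89 for Wnt, 0.95 for Adamts and 0.46 for metalloproteinase genes. It was 0.72 for collagen, 1.14 for Rgs, 0.65 for P450 and -0.57 for Kdm genes. Since these families were picked for how they moved, the values are a description.

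Among imprinted genes 4 rose and 5 fell of 24 compared. Magel2, in the Prader-Willi region, rose from 1.09 to 10.7, against 3.78 in asynchronous cells, and Zim1 from 2.19 to 7.20. Snrpn and Snurf, which overlap in the same region as Magel2, fell from 19.5 to 8.59 and from 27.3 to 11.2. DNA repair genes stood near the median gene with 3 risen and 2 fallen of 66: the Fanconi pathway genes Brca2 (8.27 to 19.99) and Fancd2 (4.64 to 10.5) rose, and Fancm (24.99 to 9.86) and the oxidised-guanine glycosylase gene Ogg1 (33.1 to 11.1) fell.

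The remaining lists are given by their counts and relative medians, beside 15.3% of all genes risen and 7.53% fallen. Kinetochore and spindle checkpoint genes had 2 risen and 4 fallen of 36 (-0.02), APC/C genes none risen and 2 fallen of 17 (-0.35), and nucleotide synthesis genes 1 risen and 2 fallen of 30 (-0.26). Ubiquitin-specific proteases had 2 risen and 6 fallen of 48 (-0.30), F-box and cullin genes 6 and 4 of 68 (-0.24), and autophagy and lysosome genes 4 and 5 of 49 (-0.36). Rab GTPases had 12 risen (18.8%) and 4 fallen (6.25%) of 64, near the shares of all genes, and a relative median of -0.22. Rab42 rose from 17.4 to 75.9. Zinc finger genes named Zfp had 23 risen and 20 fallen of 344 (-0.13), G protein-coupled receptors 15 and 5 of 59 (0.21), and mitochondrial carriers 2 and 5 of 42 (-0.15).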
